A study of Bos taurus with 32 samples.

Results

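Testicle RNA was compared between bull calves that began as embryos made in vitro (IVP) and bull calves that began as embryos conceived in vivo (MOET). The testicle libraries were chosen by their tissue label and make up 8 of the 32 libraries of the series, 4 per origin. The other 24 libraries came from the hypothalamus, pituitary and adrenal of the same 8 calves. Each calf gave 1 library per tissue, so that replicates are separate animals. All calves were Holsteins. MOET embryos were obtained by ovarian superstimulation and artificial insemination, the labels name these calves as the controls, and embryos of both origins were carried by synchronized recipient cows. The IVP calves 3208, 3209, 5833 and 5841 were 98 to 103 days old, and the MOET calves 3217, 3218 and 5932 were 102 to 104 days old. MOET calf 3213 was 144 days old.

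The testis of a calf of this age is prepubertal. Its seminiferous cords hold Sertoli cells and immature germ cells but no sperm, and the tissue between the cords holds Leydig cells, which make steroid hormones from cholesterol as adrenal cortex cells do, beside vessels and immune cells. Before puberty the Sertoli cells multiply and the germ cells move toward their first meiotic divisions, so the transcripts of the organ change with its stage. In RNA of a whole organ, fewer cells of a type and less RNA per cell cannot be told apart. The table gives gene IDs without names, so the label testicle could not be set against named Sertoli, Leydig or germ cell markers, and genes are described by level, by tissue and, for 4 of them, by ID.

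The 8 testicle libraries held 20258880 to 22149064 counts each over 27607 gene IDs. Levels are given as CPM, counts scaled to a common library total with TMM factors. As these values are not divided by gene length, they rank genes by counts and not by molecules. Differences are log2 ratios of IVP over MOET. A gene was called where edgeR's quasi-likelihood test gave an adjusted p under 0.05 (Benjamini-Hochberg, over all genes tested).

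The column of MOET 3213 did not behave as a library of its own. Its counts differed from the scaled mean of the other 3 MOET testicles by a chi-square of 0.038 per degree of freedom over genes of 10 to 100 counts, where counting noise alone gives about 1. The other 7 testicles gave 2.33 to 9.31. It lay within the range of the other 3 MOET testicles for 98.9% of the 11810 genes of 100 counts or more, against 12.2% to 71.7% for the other 7 testicles. Among 16352 genes it was the highest of the 8 testicles for 5 and the lowest for 5. The columns of this calf in the hypothalamus, pituitary and adrenal gave 0.090, 0.016 and 0.030 per degree of freedom in the same check. The adrenal column nevertheless had an RMS deviation of 0.374 in log2 CPM from its group mean over 14020 genes, against 0.031 for the testicle column. How these columns were made was not tested. MOET is therefore given below as the mean ± SD of 3 calves, 3217, 3218 and 5932, and the main results on all 8 libraries are followed by their values without MOET 3213. Since this was the only calf of 144 days, an effect of age could not be estimated.

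**Figure D1:**
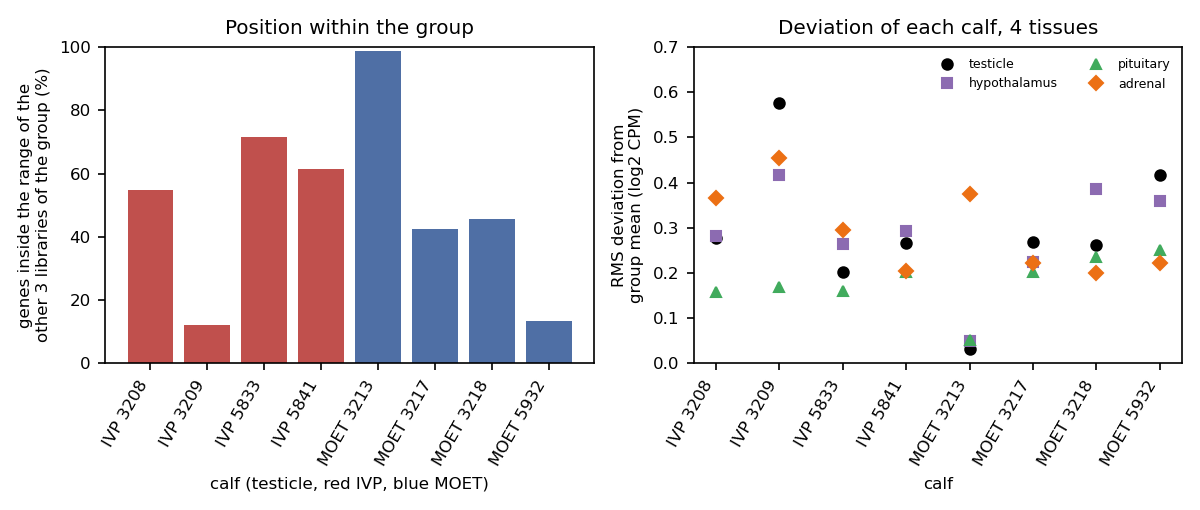
Left, share of genes (percent, 11810 genes of 100 counts or more) whose value in each testicle lay inside the range of the other 3 libraries of its origin, with red bars for IVP and blue bars for MOET. Right, root mean square (RMS) deviation of each calf from its origin's mean (log2 CPM, 14020 genes) in the 4 tissues: MOET 3213 stood at 98.9% on the left and at 0.031 for the testicle on the right, and IVP 3209 at 12.2% and 0.576.

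In contrast, 2 testicles stood apart from the others, 1 of each origin. The RMS deviation from the origin's mean was 0.611 in IVP 3209 and 0.443 in MOET 5932, against 0.244 to 0.302 in the 5 others, and 0.052 in MOET 3213. The first principal component of the variation within origins held 74.2% of that variation. IVP 3209 scored 75.8 and MOET 5932 scored 51.3 on it, and the other 6 testicles scored -30.8 to 0.85. Without these 2 calves the first component held 37.8%.

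IVP 3209 and MOET 5932 departed from their groups in much the same genes. Across 16352 genes, the difference of IVP 3209 from the other 3 IVP testicles and the difference of MOET 5932 from MOET 3217 and 3218 had a Pearson r of 0.781, which is a description across genes and not across animals. At least 2-fold higher in IVP 3209 were 872 genes, and at least 2-fold lower were 2035. The counts for MOET 5932 were 395 and 1421. Both calves were at least 2-fold lower for 1118 genes and at least 2-fold higher for 155, and they differed by 2-fold in opposite directions for 16. These 2 calves shared a direction although they were of different embryo origin.

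**Figure D2:**
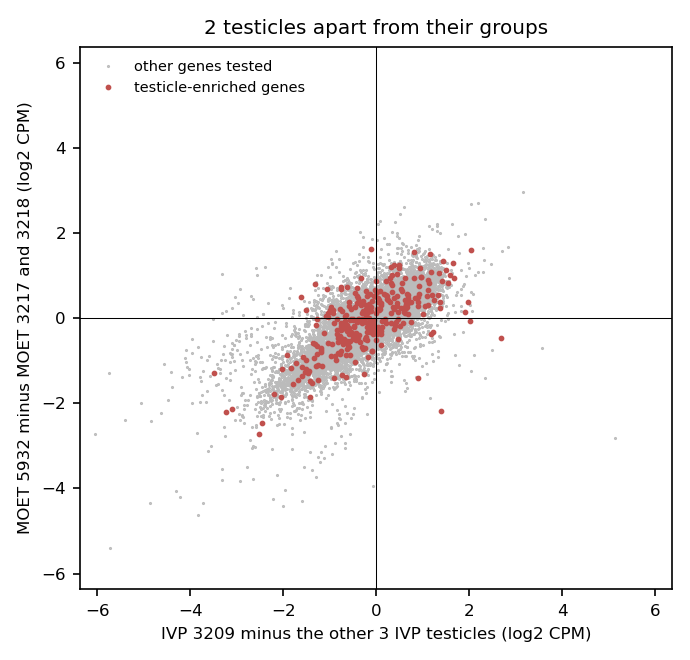
Each point is 1 of 16352 genes, with the difference of IVP 3209 from the other 3 IVP testicles on the x axis and of MOET 5932 from MOET 3217 and 3218 on the y axis (both log2 CPM). Red points are the 305 testicle-enriched genes, and the cloud runs along the diagonal with more genes far down at the lower left than at the upper right.

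The most abundant genes were higher in both calves. Of the 95 genes at 1000 CPM or more, 87.4% were higher in IVP 3209, with a median difference of 0.76 in log2, and 86.3% were higher in MOET 5932, with a median of 0.61. Among the 4824 genes of 1 to 10 CPM the medians were -0.21 and -0.10. The 100 most counted genes took 31.0% of the counts of IVP 3209 and 29.0% of those of MOET 5932, against 23.8% to 25.6% in the 6 others. A count was seen for 19772 genes in IVP 3209 and 20634 in MOET 5932, against 20749 to 21211 in the others. Genes shared by testicle and adrenal (defined below) also ran high in both, with median differences of 0.32 and 0.46. Whether tissue sampling, RNA quality or stage of the organ differed in these 2 calves was not tested.

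Outside the testicle, IVP 3209 departed much as in its testicle in the hypothalamus and in part in the adrenal, whereas MOET 5932 did not. Across genes, the deviation of IVP 3209 in its hypothalamus had r = 0.81 with its deviation in the testicle, while that of MOET 5932 had r = -0.65. In the adrenal the values were 0.50 and -0.19, and in the pituitary -0.19 and -0.20. These are descriptions over 14017 to 14198 genes of 1 calf each.

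Spread between calves of 1 origin was then compared across tissues, with each calf as the unit. Over 14020 genes tested in all 4 tissues, the RMS deviation of the testicle was 0.288 ± 0.158 (SD, n = 8 calves) and that of the other 3 tissues averaged 0.252. The adrenal column of IVP 5833, which enters this mean, also lay close to the scaled mean of its group (chi-square of 0.103 per degree of freedom). The testicle was higher in 5 of 8 calves (difference 0.036, two-sided exact sign-flip permutation p = 0.367, 0.734 after Benjamini-Hochberg adjustment over 4 comparisons). Without calf 3213, with group means taken again, the difference was 0.065, higher in 6 of 7 calves (exact permutation p = 0.0938, adjusted 0.188).

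Against the pituitary alone the testicle had the higher RMS deviation, by 0.109 and in 7 of 8 calves (exact permutation p = 0.0156). That comparison missed the threshold after adjustment over the 4 comparisons (exact permutation, adjusted p = 0.0625), and without calf 3213 it held in 7 of 7 calves with the same p and adjusted p. Against the hypothalamus and the adrenal the differences were 0.0035 and -0.0043 (exact permutation p = 0.922 and 0.953). Without calves 3209 and 5932, picked for their high testicle values, the testicle was below the mean of the other tissues by 0.052. This choice of calves favours that direction, so a p-value for it carries no weight and is not given. IVP testicles had an RMS deviation of 0.331 ± 0.167 (SD, n = 4) and MOET testicles 0.316 ± 0.0895 (SD, n = 3, means taken without MOET 3213), and these did not differ beyond the spread between calves (two-sided exact permutation p = 0.886, and p = 0.457 with all 4 MOET columns).

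Gene by gene, 1 of 16352 genes was called between IVP and MOET testicles, 0.00612% of those tested. At an unadjusted p under 0.05 stood 1478 genes (9.04%), 520 higher and 958 lower in IVP. Without MOET 3213 there was again 1 called gene, of 16518 (0.00605%), and 825 genes (4.99%) at an unadjusted p under 0.05. Without IVP 3209 there were 9 and 2456. The groups of all 8 libraries did not overlap for 7.29% of genes.

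The called gene was ENSBTAG00000021565. It had 814, 1145, 913 and 820 counts in IVP 3208, 3209, 5833 and 5841. It had 7, 1 and 14 counts in MOET 3217, 3218 and 5932, and the column of MOET 3213 held 9. The groups were far apart, and the lowest IVP testicle lay well above the highest MOET testicle. Its level was 44.8 ± 13.0 CPM (SD, n = 4) in IVP and 0.344 ± 0.313 CPM (SD, n = 3) in MOET, and without MOET 3213 the ratio of summed counts per total was 120 (95% exact interval 79.3 to 192, counting error only). The fitted log2 difference was 6.95 ± 0.47 (SE), with an adjusted p of 0.00300 by edgeR (Benjamini-Hochberg). That adjusted p was 0.0402 without MOET 3213 and 0.0531 without MOET 3217, where no gene was called and 1253 stood at an unadjusted p under 0.05. The gene was not particular to the testicle: in IVP calves it stood at 41.4 CPM in the hypothalamus, 186 CPM in the pituitary and 953 CPM in the adrenal.

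ENSBTAG00000012708 was the next gene higher in IVP. It stood at 78.4, 97.7, 87.6 and 73.7 CPM in IVP 3208, 3209, 5833 and 5841, and at 46.3, 47.8 and 43.6 CPM in MOET 3217, 3218 and 5932. The groups did not overlap, and the 3 MOET calves lay close together. Its log2 difference of 0.87 ± 0.11 (SE) had an adjusted p of 0.181 in the edgeR test, and 0.886 without MOET 3213.

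ENSBTAG00000021814, a testicle-enriched gene, was the leading gene among those lower in IVP. It stood at 4.89, 4.54, 5.36 and 4.70 CPM in IVP 3208, 3209, 5833 and 5841, and at 8.92, 10.2 and 9.08 CPM in MOET 3217, 3218 and 5932. The groups did not overlap, and IVP 3209 and MOET 5932 lay with the rest of their groups. Its log2 difference was -0.95 ± 0.12 (SE), with an adjusted p of 0.192 in the edgeR test, and 0.886 without MOET 3213. ENSBTAG00000039151 was the second of this direction, at 0.484 ± 0.068 CPM (SD, n = 4) in IVP and 1.40 ± 0.36 CPM (SD, n = 3) in MOET. Its log2 difference was -1.51 ± 0.23 (SE) with an adjusted p of 0.236 in the same edgeR test, and 0.886 without MOET 3213.

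The effect of origin was then described by level. Genes were placed in bands by their mean CPM over all 8 testicles, which does not use origin. Direction changed steadily with level: 32.1% of 1561 genes under 1 CPM were higher in IVP, 40.7% of 4824 genes at 1 to 10 CPM, 64.2% of 8034 genes at 10 to 100 CPM, 83.5% of 1838 genes at 100 to 1000 CPM, and 95.8% of 95 genes at 1000 CPM or more. The differences themselves were small. Their median was -0.20 in the lowest band, -0.07, 0.05 and 0.11 in the next, and 0.14 in the highest, each in log2. Genes of a band are read in the same 8 libraries and are not independent of each other.

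The genes past an unadjusted p of 0.05 followed the same order. Under 1 CPM they were 24 higher and 167 lower in IVP, 12.2% of the band, and at 1 to 10 CPM they were 123 higher and 564 lower, 14.2%. At 10 to 100 CPM they were 230 higher and 222 lower, 5.63%. At 100 to 1000 CPM 138 were higher and 5 lower, 7.78%, and at 1000 CPM or more 5 were higher and 0 lower, 5.26%. Without MOET 3213 the 5 shares were 7.11%, 8.60%, 2.60%, 4.24% and 2.11%. No band but that of 10 to 100 CPM held a called gene in the edgeR test. The most and the least abundant genes varied most within origins, with a median SD of 0.43 in log2 under 1 CPM, 0.21 at 100 to 1000 CPM and 0.37 at 1000 CPM or more.

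**Figure D3:**
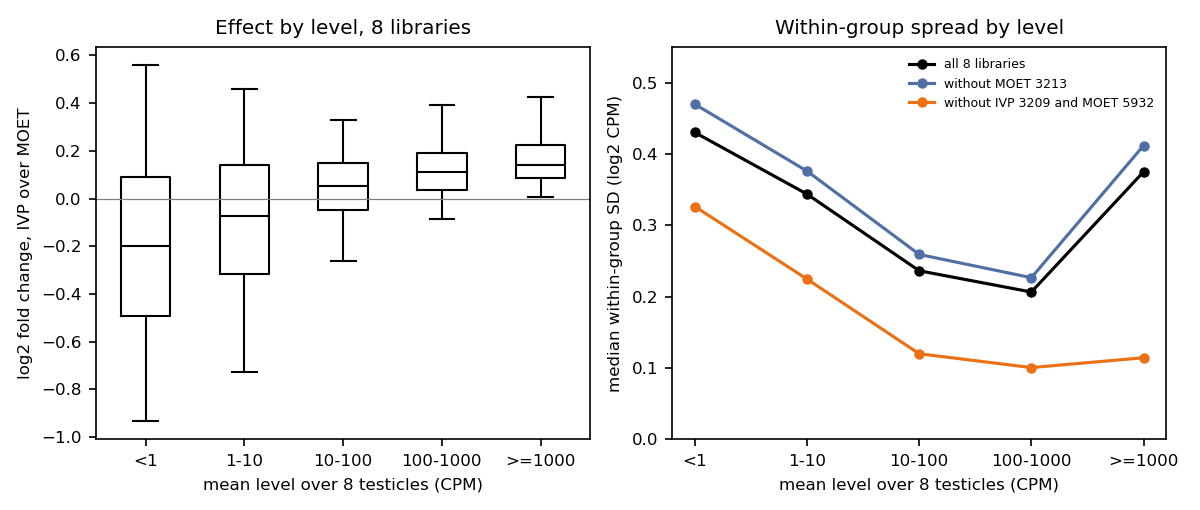
Left, log2 fold change of IVP over MOET for the genes of each band of mean level (CPM), with boxes for the middle 50% of genes, a line at the median and whiskers at the 5th and 95th percentiles. Right, median SD within origins (log2 CPM) per band with all 8 libraries (black), without MOET 3213 (blue) and without IVP 3209 and MOET 5932 (orange): at 1000 CPM or more it was 0.37, 0.41 and 0.11.

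The share of higher genes among the most abundant moved with the 2 calves that stood apart. Without IVP 3209 and MOET 5932, 58.9% of the 95 genes at 1000 CPM or more were higher in IVP, with a median of 0.03, and 68.8% of those at 100 to 1000 CPM, with a median of 0.06. The low bands moved less, to 35.1% under 1 CPM and 39.9% at 1 to 10 CPM. With MOET 3213 also left out, 86.3% of the genes at 1000 CPM or more were higher in IVP, and 71.9%, 53.5%, 36.7% and 33.6% of the bands below it in turn. At 100 to 1000 CPM the lean toward higher values in IVP held in each of these sets of libraries and without MOET 3213 alone (83.4%), while at 1000 CPM or more its size depended on which calves were in.

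Leaving out IVP 3209 and MOET 5932 was decided after their values were seen, and it lowered the biological coefficient of variation shared by all genes from 0.233 to 0.110. With the other 6 libraries, 203 of 16448 genes were called, 1.23%, with 137 higher and 66 lower in IVP. With MOET 3213 left out as well, 3 IVP and 2 MOET testicles gave 83 called genes of 16702 (0.497%), 67 higher and 16 lower, 77 of them among the 203. Most differences were modest: the median size over the 203 genes was 0.77 in log2, with 34 genes over 2-fold higher and 20 over 2-fold lower.

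Among these 203 genes, those at 100 to 1000 CPM were 50 higher and 1 lower in IVP, 2.77% of the band against 1.23% of all genes. Those at 10 to 100 CPM were 50 and 32 (1.02%), and those at 1 to 10 CPM 22 and 30 (1.08%). Under 1 CPM they were 4 and 2 (0.394%), and at 1000 CPM or more 4 and 0 (4.21%). Genes tested in this set but not with all 8 libraries gave 7 and 1 (5.93%). ENSBTAG00000012708 had an adjusted p of 0.00562, ENSBTAG00000021814 of 0.0136 and ENSBTAG00000039151 of 0.0423 in the edgeR test with these 6 libraries. With MOET 3213 left out as well, the first 2 stayed under the threshold, at 0.0159 and 0.0397 in edgeR's test. ENSBTAG00000039151 did not, with an adjusted p of 0.1335 in that test.

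Testicle-enriched genes were those whose mean log2 CPM over the 8 testicles was at least 3 above the mean in each of the other 3 tissues, an 8-fold difference. There were 305, all tested, chosen by tissue and not by origin. The median margin was 3.88 and the largest was 9.60 in log2. The last gene inside the threshold had a margin of 3.0012 and the first outside 2.9969. By the rule they mark the testicle libraries: their mean level was 3.37 to 3.77 in log2 CPM over the 8 testicles and at most -0.67 in any library of another tissue.

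A few testicle-enriched genes took most of their counts. The group held 4.79% to 5.64% of all counts in the 6 testicles other than IVP 3209 and MOET 5932, which held 7.08% and 6.56%. The 2 most abundant genes alone took 2.06% of counts in the lowest testicle and 3.94% in the highest. The most abundant stood at 14580, 25160, 14090 and 14550 CPM in IVP 3208, 3209, 5833 and 5841, and at 10940, 12370 and 22220 CPM in MOET 3217, 3218 and 5932. The groups overlapped, and the high values were those of IVP 3209 and MOET 5932. The second stood at 12190, 22940, 11360 and 11600 CPM in the IVP calves and at 8025, 10440 and 17860 CPM in the MOET calves, in the same order of calves, and again IVP 3209 and MOET 5932 were the highest.

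The third behaved otherwise. It stood at 5088, 4973, 4823 and 5038 CPM in IVP 3208, 3209, 5833 and 5841, and at 4407, 3958 and 4567 CPM in MOET 3217, 3218 and 5932. Its groups did not overlap and the 4 IVP calves lay within a narrow range, with a log2 difference of 0.21 ± 0.13 (SE) and an adjusted p of 0.746 in the edgeR test. The seventh in abundance was among the most variable, at 2455 CPM in IVP 3209 against 850 to 1065 CPM in the other 3 IVP testicles, and at 1514 CPM in MOET 5932 against 635 and 1078 CPM in MOET 3217 and 3218. The eighth went the other way, at 734 CPM in IVP 3209 against 997 to 1245 CPM in the other IVP testicles, and at 604 CPM in MOET 5932 against 807 and 1082 CPM in MOET 3217 and 3218.

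The 2 calves that stood apart did not raise or lower the testicle-enriched genes as a block. IVP 3209 was at least 2-fold above the other 3 IVP testicles for 30 of the 305 and at least 2-fold below for 47, and MOET 5932 was so for 17 and 32. Both were low for 25 of them and high for 8. Over all 16352 genes, IVP 3209 was so for 872 above and 2035 below, and MOET 5932 for 395 and 1421. Both were low for 1118 of all genes and high for 155. IVP 3209 was the highest of all 8 testicles for 68 of the 305 genes and the lowest for 109, more than any other library. Over all 16352 genes it was the highest for 5138 and the lowest for 4364, also more than any other library. Among the 7 at 1000 CPM or more, 100% were higher in MOET 5932 and 85.7% in IVP 3209. Over all genes of that level these shares were 86.3% and 87.4%. Of the 154 at 1 to 10 CPM, 34.4% were higher in IVP 3209 and 48.7% in MOET 5932. Over all genes of that level these were 39.8% and 44%.

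No testicle-enriched gene was called between origins in the edgeR test with all 8 libraries, where 0.00612% of all genes were. At an unadjusted p under 0.05 stood 99 of the 305, 32.5%, with 25 higher and 74 lower in IVP, against 9.04% of all genes. Without MOET 3213 these were 73, 23.9%, with 13 higher and 60 lower, against 4.99%. The groups did not overlap for 72 of the 305 (23.6%, against 7.29% of all genes), 16 of them higher in IVP. The median log2 difference was -0.06, against 0.03 over all genes tested. The list was not tested as a set.

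Low and high testicle-enriched genes differed in opposite directions, as low and high genes did over all genes tested. Of the 154 at 1 to 10 CPM, 26.0% were higher in IVP, against 40.7% of all 4824 genes of the band. The median log2 difference was -0.45, against -0.07. At an unadjusted p under 0.05 stood 7 higher and 54 lower, 39.6% against 14.2%. Without MOET 3213 these were 5 and 41, 29.9% against 8.60%. Of the 44 at 100 to 1000 CPM, 90.9% were higher in IVP, against 83.5% of all genes of the band. Their median was 0.22, against 0.11. They had 9 higher and 0 lower at an unadjusted p under 0.05, 20.5% against 7.78%. Without MOET 3213 these were 4 and 0, 9.09% against 4.24%. The 93 genes between these bands had a median of 0.07. All 7 at 1000 CPM or more were higher in IVP by fitted values, as were 95.8% of all genes of that level. Their median was 0.27, against 0.14, and none stood at an unadjusted p under 0.05.

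The mean level of the 154 genes at 1 to 10 CPM was 1.51, 1.24, 1.68 and 1.46 in log2 CPM in IVP 3208, 3209, 5833 and 5841, and 1.82, 1.79 and 1.72 in MOET 3217, 3218 and 5932. Every IVP testicle lay below every MOET testicle, though IVP 5833 came close to MOET 5932. The mean level of the 44 genes at 100 to 1000 CPM was 7.99, 8.10, 7.96 and 7.98 in the IVP calves and 7.80, 7.86 and 7.75 in the MOET calves, in the same order. Here every IVP testicle lay above every MOET testicle. These means summarise genes chosen by level and tissue and carry no test.

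**Figure D4:**
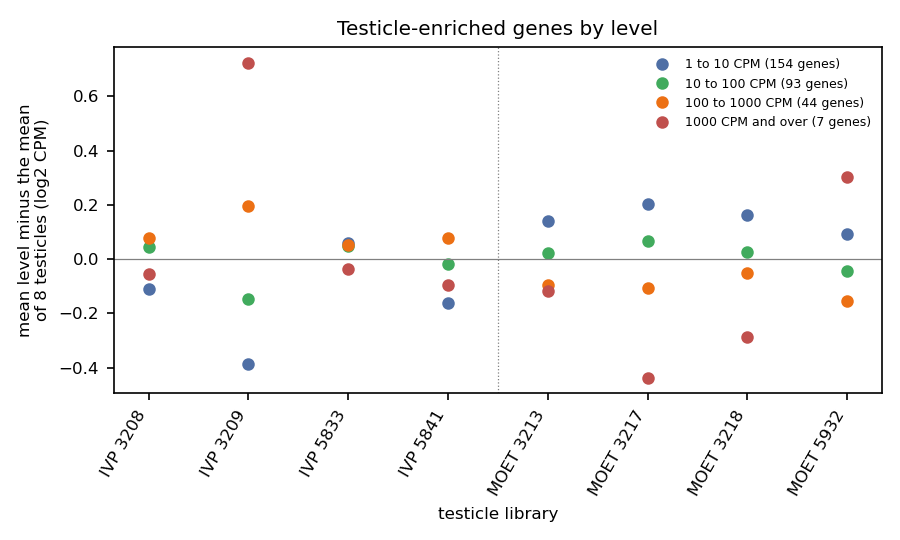
Mean level (log2 CPM) of testicle-enriched genes in each testicle, minus the mean of the 8 testicles, by band of level. Genes of 1 to 10 CPM (blue) lay lower in the 4 IVP testicles than in the MOET testicles and genes of 100 to 1000 CPM (orange) lay higher, while the 7 genes of 1000 CPM or more (red) were led by IVP 3209 and MOET 5932.

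Without IVP 3209 and MOET 5932 the medians were -0.37 at 1 to 10 CPM and 0.14 at 100 to 1000 CPM, and with MOET 3213 also left out they were -0.42 and 0.09. With the 2 calves left out, 17 testicle-enriched genes were called (5.57%, against 1.23% of all genes), 7 higher and 10 lower. With MOET 3213 also left out, 3 were called higher and 1 lower (1.31%, against 0.497%). Among those 17 was ENSBTAG00000021814.

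Genes of the other tissues were also read in the testicle. Enriched by the same 8-fold rule in the hypothalamus were 267 genes tested in the testicle, and their median log2 difference was -0.42, with 6 higher and 92 lower in IVP at an unadjusted p under 0.05 (36.7%, against 9.04% of all genes). Their mean level was 1.02, 0.90, 1.24 and 1.06 in log2 CPM in IVP 3208, 3209, 5833 and 5841, and 1.74, 1.31 and 1.41 in MOET 3217, 3218 and 5932. All 4 IVP testicles lay below the MOET testicles, although these genes took only 0.170% to 0.237% of the counts of any testicle. Without MOET 3213 the counts were 3 higher and 71 lower (27.7%, against 4.99%), with a median of -0.44. Without IVP 3209 and MOET 5932, 10 of the 267 were called, all lower in IVP (3.75%, against 1.23% of all genes). With MOET 3213 also left out 1 was called, 0.375%, which is below the 0.497% of all genes.

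Pituitary-enriched genes read in the testicle had a median of -0.27, with 2 higher and 17 lower of 87 at an unadjusted p under 0.05 (21.8%, against 9.04% of all genes), and 1 and 13 without MOET 3213 (16.1%, against 4.99%). Adrenal-enriched genes had a median of -0.36, with 3 higher and 12 lower of 40 (37.5%), and 3 and 7 without MOET 3213 (25.0%). The mean level of the adrenal-enriched genes was 0.91 to 1.26 in log2 CPM over the IVP testicles and 1.29 to 1.74 over MOET 3217, 3218 and 5932, so that the highest IVP testicle, 3209, all but met the lowest MOET testicle, 3217. Their share of counts was 0.036% to 0.042% over the IVP testicles and 0.031% to 0.04% over MOET 3217, 3218 and 5932. By share the groups overlapped and IVP did not lie lower. The mean level of the pituitary-enriched genes was 0.23 to 0.86 in IVP and 0.72 to 0.98 in MOET, and the groups overlapped. The low bands as a whole leaned the same way, as given above, and the part that level plays in these lists was not tested.

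Genes at least 8-fold above both the hypothalamus and the pituitary in both the testicle and the adrenal, the 2 steroid-making organs of the series, numbered 78 among those tested. Their median log2 difference in the testicle was 0.16, with 11 higher and 6 lower in IVP at an unadjusted p under 0.05 (21.8%, against 9.04% of all genes), and with 7 and 2 without MOET 3213 (11.5%, against 4.99%). Their share of counts was 1.71%, 2.26%, 1.82% and 1.97% in IVP 3208, 3209, 5833 and 5841, and 1.23%, 1.45% and 2.24% in MOET 3217, 3218 and 5932. By share the groups overlapped through MOET 5932, and the highest calf of each origin was the one that stood apart. By mean log2 CPM, MOET 3218 at 4.64 also lay above IVP 3208 at 4.57. Without both of these calves 7 of the 78 were called, all higher in IVP (8.97%, against 1.23% of all genes), and 6 with MOET 3213 also left out (7.69%, against 0.497%).

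Genes whose mean levels in the 4 tissues lay within 1 in log2 of each other numbered 4592 and had small differences. Their median log2 difference was 0.05 and their median size of difference 0.09, and 101 higher and 51 lower stood at an unadjusted p under 0.05 (3.31%, against 9.04% of all genes). Without MOET 3213 these were 31 and 21 (1.13%, against 4.99%). Without IVP 3209 and MOET 5932, 7 were called higher and 5 lower (0.262%, against 1.23% of all genes).

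Whether the effect of origin in the testicle differed from its mean effect in the other 3 tissues was tested in 1 edgeR fit of all 32 libraries. That fit took the 32 libraries as independent, although each calf gave 1 per tissue. There were 115 called genes of 18242 (0.63%), 50 with a higher and 65 with a lower difference in the testicle. Testicle-enriched genes made up 3 of the 115, out of 305 tested, and 0 of the genes called without calf 3213. Over all genes the median size of the origin difference was 0.15 in log2 in the testicle, against 0.29 in the hypothalamus, 0.18 in the pituitary and 0.35 in the adrenal. The count fell to 3 without calf 3213 (1192 at an unadjusted p under 0.05). Without calves 3209 and 5932, whose testicles stood apart, it was 269 (1.47% of 18266). With the calf as a block, which takes the 4 tissues of a calf as paired, limma's test called 0 genes. At an unadjusted p under 0.05 it had 1722. This fit used the testicle log2 CPM of each calf minus the mean of its other 3 tissues, so that test and pairing both changed. The difference between tissues for ENSBTAG00000021565 is not given, since its mean in MOET calves was 0.040 CPM in the hypothalamus, 0.014 CPM in the pituitary and 0.013 CPM in the adrenal, below the 0.148 CPM that 3 counts stand for in the smallest testicle library.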

How the data were processed

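Per the labels' protocols, RNA was poly(A)-selected, libraries were not strand-specific, and sequencing was paired-end on DNBSEQ. STAR 2.7, HTSeq and bosTau9 are named in the submitters' processing notes, with no annotation or counting settings. The authors deposited raw counts for 27607 gene IDs in 32 libraries, and 0 entries name no gene. Reads from overlapping genes on the 2 strands, or from near-identical genes, cannot be separated.

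From these counts, testicle genes were kept with filterByExpr (minimum count 10, minimum total 15), scaled by TMM and tested with edgeR 4.0.16 (quasi-likelihood, robust) on the 8 testicles, with Benjamini-Hochberg adjustment at 0.05. Log2 CPM used a prior count of 2. On simulated counts for this comparison (16116 genes, libraries independent), 46 of 99 genes changed 2-fold and 88 of 100 changed 4-fold were called, with 6 false calls. Alternatives used DESeq2 1.42.0 and limma 3.58.1, under R 4.3.3. Figures used matplotlib 3.10.9.

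The members, lists and tests were chosen with earlier results of these data known. The rule for named genes took those of smallest p, at most 2 IDs per direction since 0 IDs could be paired with symbols. The planned pathway lists and cell type markers were therefore not analysed here, and no sequences are shown. Labels give 1 number per calf, which pairs tissues of a calf and not IVP with MOET calves. Leaving out IVP 3209 with MOET 5932 was added after the data were seen.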

Additional observations from a re-analysis of the deposited data

Results flagged for a closer look

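IVP 3209 stood far from the other 3 IVP testicles in several measures, and among groups of 4 chance gives such a gap in about 1 of 20. It had a count for 19772 genes, against 20902 to 21054 in the other 3. The 100 most counted genes took 31.0% of its counts, against 25.2% to 25.3%. Its RMS deviation from the origin's mean was 0.611 in log2 CPM, against 0.244 to 0.302, and its score on the first component within origins was 75.8, against -30.8 to -14.6. Testicle-enriched genes took 7.08% of its counts, against 5.56% to 5.64%. These measures come from the same library and are not independent of each other.

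ENSBTAG00000021565 stood at 64.2 CPM in IVP 3209, against 36.7 to 40.4 CPM in the other 3 IVP testicles. An IVP calf stood apart by the same rule for 47 of the 305 testicle-enriched genes (15.4%). That count does not say which calf it was, or whether it was high or low. In MOET the count was 2 (0.656%). A MOET column did not behave as a library of its own, so the counts of the origins are not compared. No share over all genes is given.

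The effect of origin in the testicle differed from the mean of the other 3 tissues for 115 genes in edgeR's test of that difference. That test did not pair the tissues of a calf. The paired test, by limma, called 0 genes.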

How the results depend on the processing

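The number of called genes was 1 with DESeq2 size factors, without the low-count filter and with a mean CPM of 1 or over. It was also 1 with age or animal number series as a covariate. The fit with age cannot speak to age, since MOET 3213 was the only calf of 144 days. It was 240 with the DESeq2 Wald test and 180 with all 32 libraries in 1 fit. A within-origin score of each testicle as a covariate gave 1945, and 158 with MOET 3213 also left out. That score was taken from the testicle values, weighted by the first within-origin components of the other tissues. It is therefore not independent of the values tested. The number was 203 without IVP 3209 and MOET 5932, and 83 without these and MOET 3213. It was 5512 with limma voom and quality weights, which gave MOET 3213 a weight of 30.3 and IVP 3209 one of 0.0961. With 1 testicle left out in turn it ran from 0 (without MOET 3217) to 9 (without IVP 3209). The causes of these changes were not tested. The adjusted p of ENSBTAG00000021565 ran from 5.82e-58 with DESeq2 to 0.0531, and those of the other 3 named genes from 1.03e-09 to 0.914, with no change of sign in any setting run.

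Another scaling, DESeq2 size factors, moved the median over all genes from 0.03 to 0.05, and no band of level, nor any band of the testicle-enriched genes, changed the sign of its median. Of genes at an unadjusted p under 0.05, leaving out 1 testicle in turn gave 111 to 238 under 1 CPM, 415 to 941 at 1 to 10 CPM, 209 to 989 at 10 to 100 CPM, 78 to 238 at 100 to 1000 CPM and 2 to 7 at 1000 CPM or more. The lowest value of each came without MOET 3213, tied with other calves in the highest band. Without IVP 3209 and MOET 5932 these were 1299 at 10 to 100 CPM, 338 at 100 to 1000 CPM and 17 at 1000 CPM or more. With MOET 3213 also left out they were 980, 293 and 21, and 118 under 1 CPM.

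The median of the testicle-enriched genes ran from -0.150 (without IVP 3209) to -0.041 (without MOET 3218), and was -0.169 for 16-fold and -0.003 for 4-fold enrichment. The spread difference between testicle and the other tissues was 0.0736 for genes of mean CPM 10 or over (two-sided exact permutation p = 0.0156), from -0.0172 (without calf 3209) to 0.0654 (without calf 3213) with 1 calf left out, and -0.0525 without calves 3209 and 5932.

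For the testicle against the other tissues, the replicate block, which pairs the tissues of a calf, gave 0 called genes, and 0 with calf 3213 left out. These fits were made by limma on differences within calves, with 1722 and 1017 genes at an unadjusted p under 0.05. Without the block, 269 were called without calves 3209 and 5932, and 0 without calves 3213 and 5833, whose adrenal column also lay at the mean of its group (edgeR, 1014 genes at an unadjusted p under 0.05). With 1 calf left out in turn the count ran from 3 (without 3213) to 143 (without 5932), and was 14 without 3217, 28 without 5841 and 69 without 3218. No such block exists between IVP and MOET testicles, which come from different calves. Depth limits the low band: 3 counts stand for 0.148 CPM in the smallest library.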
